A study of Mus musculus with 6 samples.

Results

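The genes described here encode the nuclear-encoded subunits of the mitochondrial respiratory chain and of ATP synthase, together with a few assembly factors that share their names. They were chosen by symbol, from probe sets assigned to a single gene whose symbol begins with Nduf, Uqcr, Atp5 or Sdh, or with Cox followed by a digit from 4 to 8, or is Cyc1 or Cycs. Of 19938 genes with such a probe set, 95 met the rule, with 123 of 35557 probe sets, and the brightest probe set stood for each gene. They comprise 34 subunits of complex I, 4 of complex II, 9 of complex III, cytochrome c, 19 of complex IV, 17 of complex V and 11 assembly factors. Ndufa4 and Ndufa4l2 were counted with complex IV, since the Ndufa4 protein is known to be a subunit of cytochrome c oxidase. The rule itself uses no measured difference between groups, but the members were chosen with earlier results of these data known.

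Complexes I and II pass electrons from NADH and from succinate to ubiquinone, complex III passes them to cytochrome c, and complex IV passes them to oxygen. Complexes I, III and IV pump protons across the inner mitochondrial membrane, and complex V, the ATP synthase, lets them return and makes ATP. Nearly all subunits are encoded in the nucleus, while a core of hydrophobic ones is encoded in mitochondrial DNA. In the yolk sac, the visceral endoderm is an absorptive epithelium rich in mitochondria.

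The tissue was whole yolk sac of mouse embryos at embryonic day 9.5. The mutant group held 3 samples, each from 1 embryo homozygous for a gene-trap allele of Tnrc6a (GW182gt/gt), which encodes the GW182 protein that links Argonaute to the silencing of microRNA targets. The wild-type group held 3 samples, each from 1 littermate embryo. Both genotype labels add the word mixed without saying what was mixed. A Mouse Gene 1.0 ST array was used for every sample.

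Tnrc6a read 7.81, 5.33 and 5.20 in the libraries labelled mutant 1, 2 and 3, against 8.40, 7.62 and 8.29 in wild types 1, 2 and 3 (log2 signal). The library labelled mutant 1 lay above wild type 2, which contradicts its label. Every mutant mean below includes this library unless stated. The difference was −1.99 (SE 0.64), with an adjusted p of 0.999 in limma and an exact two-sided permutation p of 0.2, where 3 against 3 arrays cannot go below 0.1. Array medians ran from 5.19 to 5.22, and with 3 arrays a genotype precision is low. Markers fixed for the tissue were present: the visceral endoderm genes Apob, Rbp4 and Dab2 read at least 11.43 on every array. Of the marker lists, primitive erythroid genes averaged −0.12, −0.82 and −0.14 relative to the wild-type mean in the libraries labelled mutant 1, 2 and 3, against 0.018, −0.062 and 0.044 in wild types 1 to 3, and 14 of 14 genes were lower in the mutants on average. Trophoblast, decidua and parietal endoderm genes averaged −0.52, 0.18 and −0.18 in the mutant libraries, against −0.38, 0.86 and −0.49 in wild type, where wild type 2 stood apart. Single genes of this list differed: Prl8a2 was highest in mutant 2 (9.11, against 7.44 in wild type 2). Lama1 was highest in wild type 2 (10.69, against 8.02 in mutant 2). Endothelial genes averaged 0.042, 0.21 and 0.48 in the mutant libraries, against −0.12, 0.14 and −0.021 in wild type, and 15 of 15 were higher in the mutants on average. Mesenchyme and smooth muscle genes were highest in wild type 2, at 0.53, and the cardiac actin gene Actc1 was highest in mutant 3 and wild type 2, at 9.92 and 9.55. Macrophage genes averaged between −0.14 and 0.068. In bulk tissue, fewer cells of a type and less RNA per cell cannot be told apart.

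No respiratory chain or ATP synthase gene passed the test between genotypes, and most of the 95 differed by a few percent. In the limma fit across 15252 probe sets, 93 of the 95 genes lay above the filter on dim signal. Of these, 0 passed an adjusted p of 0.05, beside 0.0% of all tested probe sets. At an unadjusted p under 0.05 there was 1 member, Ndufaf1, which was lower in the mutants. That is 1.08% of the members tested, beside 3.53% of all probe sets tested in either direction, 1.21% for lower and 2.32% for higher in the mutants. For 2 members, Ndufaf1 and Ndufaf4, every mutant value lay below every wild-type value, and for none did every mutant lie above. That is 2.15%, beside 8.55% of all tested probe sets without overlap in either direction, 3.31% for lower and 5.24% for higher in the mutants. The methods' t-test put 1 member, Ndufaf4, under its unadjusted threshold, beside 3.85% of all probe sets, and 0 after Benjamini-Hochberg adjustment.

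The count of members at an unadjusted p under 0.05 turned on single libraries. It was 7 without mutant 3 (Atp5l, Cox7a1, Cycs, Ndufa12, Ndufaf1, Ndufaf2 and Ndufc2), where 8.21% of all tested probe sets met the same threshold. It was 0 without the library labelled mutant 1 (4.40% of all tested probe sets), without mutant 2 (2.46%), and without wild type 1 (2.43%), 2 (4.92%) or 3 (2.46%).

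Over all 95 genes the median log2 difference, mutant minus wild type, was −0.017, with 37 genes higher and 58 lower. The sign of that median rested on single libraries: it was 0.027 without the library labelled mutant 1, when 27 of the 95 genes changed sign, and 0.011 without wild type 3, when 24 did. Leaving out wild type 1 gave −0.047, mutant 3 gave −0.032 and wild type 2 gave −0.0077. Over all tested probe sets the median was 0.0077, with 52.9% higher. Among the 93 tested members the median size of the difference was 0.047, beside 0.074 over all tested probe sets, and 79.6% differed by under 0.1, beside 62.4%. A p that misses the threshold does not show equal levels, so the 95% limma interval of each difference was set against a 1.5-fold change in either direction. For 88 of the 93 members (94.6%) the interval lay inside that range, beside 90.7% of all tested probe sets. The intervals of Ndufaf1, Ndufc2, Ndufa4l2, Cox7a1 and Sdhaf4 reached beyond it. All these intervals include the library labelled mutant 1, and the count was not made without it. The median spread within a genotype was an SD of 0.13 for the members and 0.13 for all tested probe sets.

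**Figure D1:**
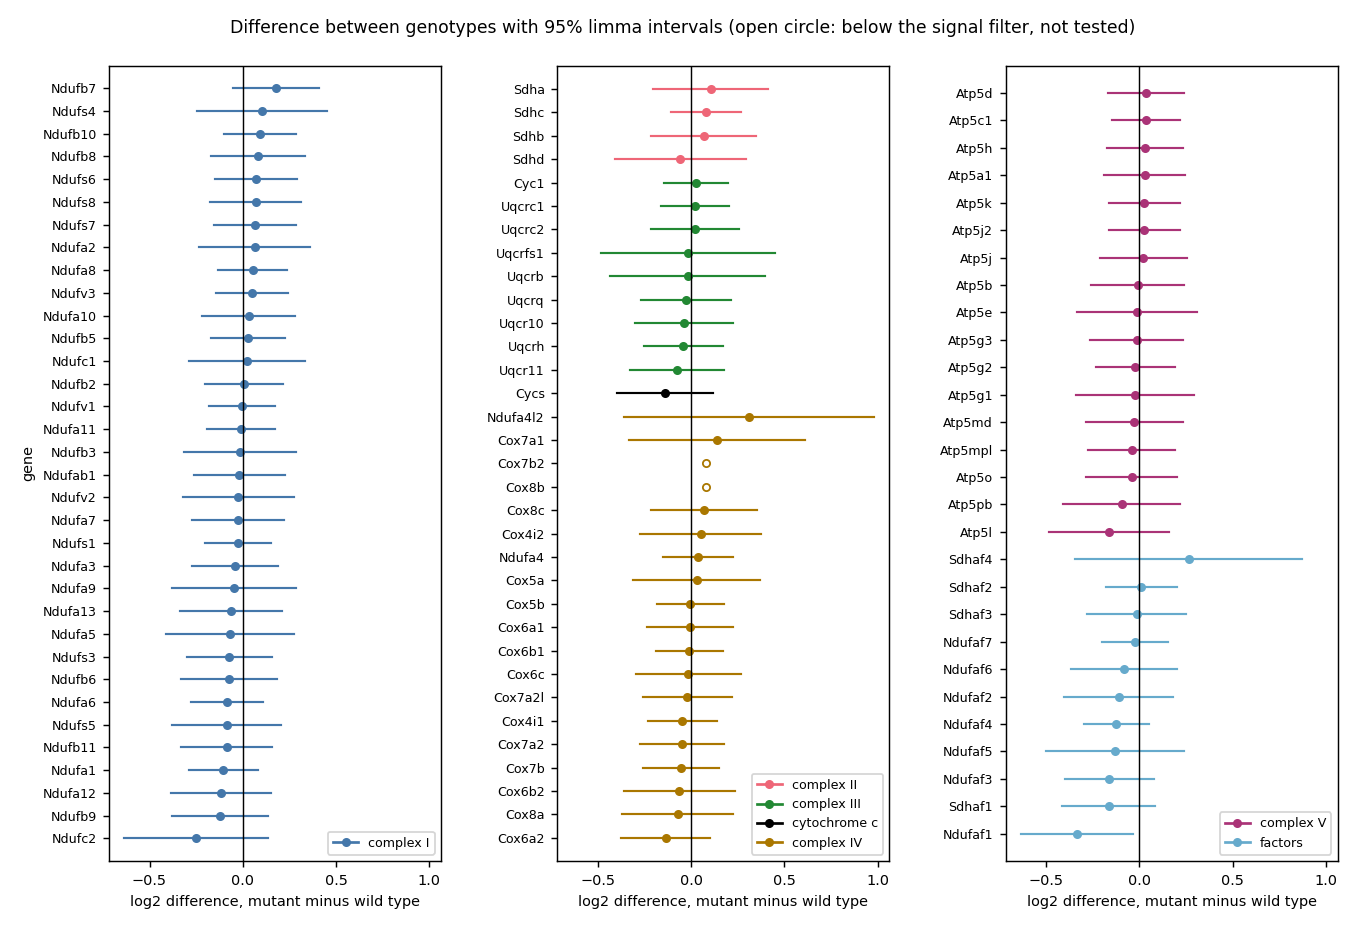
Log2 difference between genotypes (horizontal axis, mutant minus wild type) of each of the 95 genes, one per row, with the 95% interval of the limma fit as a line and colours for the complexes; open circles are 2 genes below the signal filter, which were not tested. The interval of Ndufaf1 alone leaves out 0, and the widest belong to Ndufa4l2 and Sdhaf4.

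The medians of the members were spread similarly within each genotype. Relative to the wild-type mean of each gene, the median of the 95 genes was −0.088, 0.0021 and 0.053 in the libraries labelled mutant 1, 2 and 3, against −0.082, 0.018 and 0.064 in wild types 1 to 3. Thus 1 library of each genotype was low by a similar amount and 1 of each was high. Over all tested probe sets the same medians lay between −0.020 and 0.023. The library labelled mutant 1 held the lowest of the 6 values for 35 genes and wild type 1 for 23, while mutant 3 held the highest for 30 and wild type 3 for 26. As shares of the members these are 36.8%, 24.2%, 31.6% and 27.4%, beside 15.5%, 17.7%, 25.3% and 19.2% of all tested probe sets. Wild type 1 held the highest value for 1 gene, or 1.05%, beside 9.61% of all tested probe sets.

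Complexes I, II, IV and V shared this order in part. The median of complex I was −0.077, −0.023 and 0.054 in the libraries labelled mutant 1, 2 and 3, against −0.10, 0.023 and 0.067 in wild types 1 to 3. Complex V read −0.071, 0.034 and 0.055 in the mutant libraries, against −0.082, 0.040 and 0.031 in wild type. Complex III did not have it in the mutants: its medians ran from 0.0021 to 0.022 in the mutant libraries, against −0.060 to 0.066 in wild type, where wild type 1 was again lowest. The assembly factors read −0.13, −0.12 and −0.016 in the mutant libraries, against −0.10, −0.0095 and 0.073 in wild type, and these groups overlapped.

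**Figure D2:**
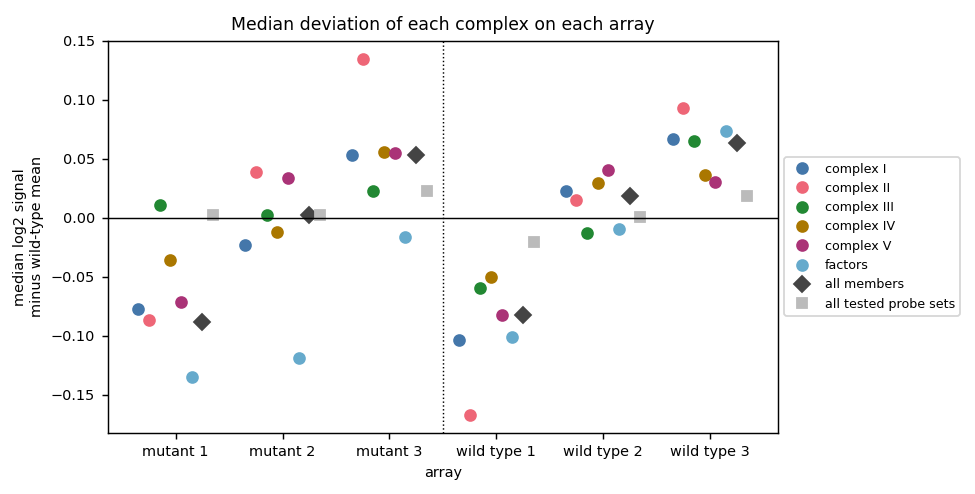
Median log2 signal relative to the wild-type mean (vertical axis) for each complex, for all 95 members and for all tested probe sets (symbols), on the 3 mutant and 3 wild-type arrays (horizontal axis); cytochrome c, a single gene, is not drawn. The median of all members is lowest at −0.088 (library labelled mutant 1) and −0.082 (wild type 1), and highest at 0.053 (mutant 3) and 0.064 (wild type 3).

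Mitochondrial ribosomal proteins were also lowest in the library labelled mutant 1 and in wild type 1, but mutant 2 was low as well. Lists are given here as means, and the members above as medians. The mean of 77 such genes relative to wild type was −0.073, −0.052 and 0.053 in the libraries labelled mutant 1, 2 and 3, against −0.071, −0.0080 and 0.079 in wild types 1 to 3. Enzymes of the tricarboxylic acid cycle and pyruvate dehydrogenase, 18 genes, read −0.093, −0.045 and 0.072 in the mutant libraries, against −0.064, −0.014 and 0.078 in wild type. Visceral endoderm markers did not follow this order: their means were 0.068, 0.13 and −0.16 in the mutant libraries, against −0.010, −0.014 and 0.025 in wild type. The part of cell composition or RNA quality in the differences between embryos was not tested.

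**Figure D3:**
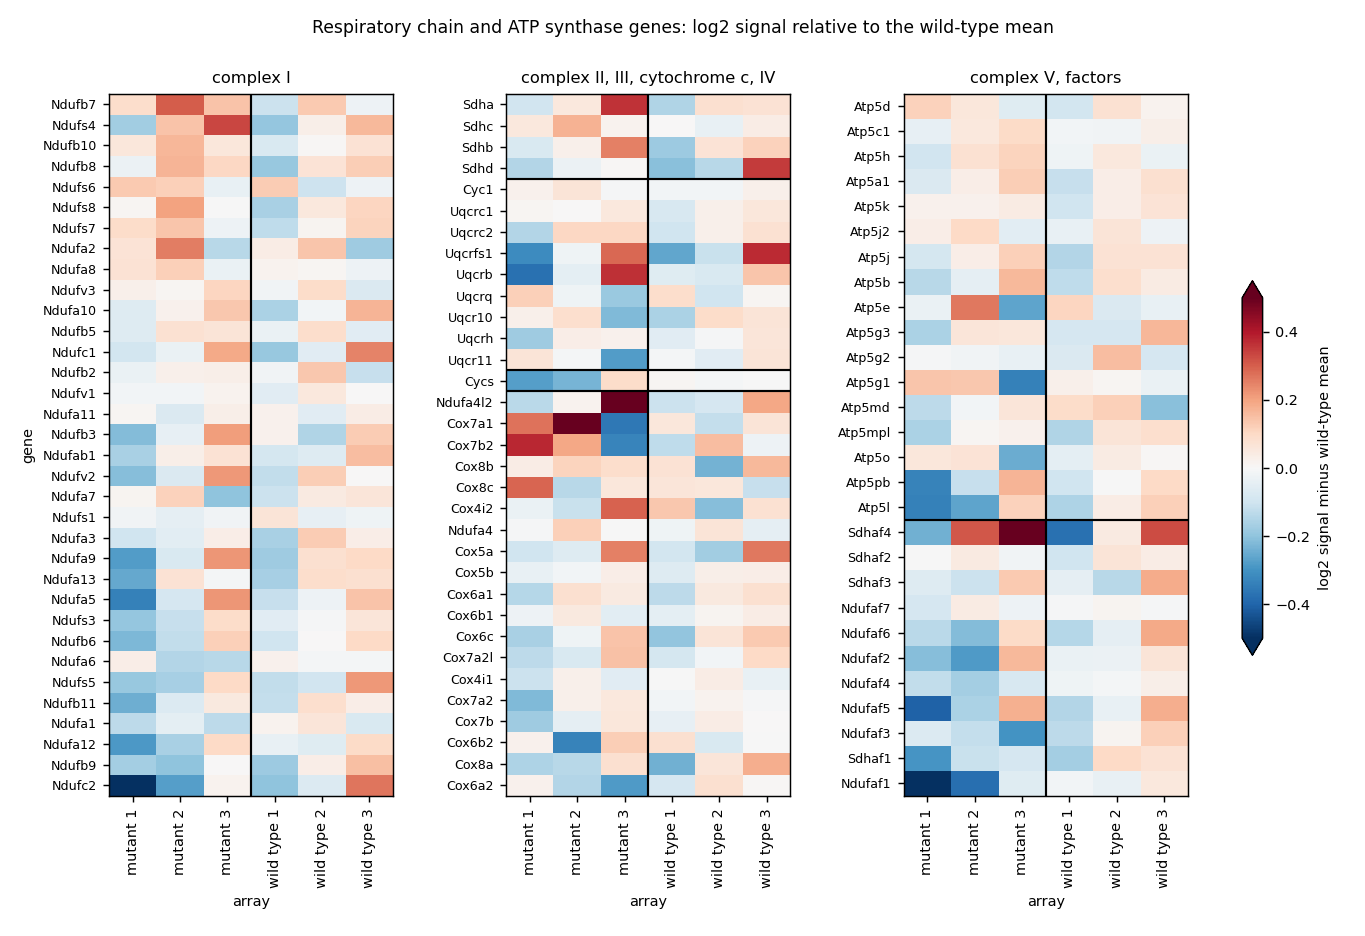
Log2 signal of each gene (rows, grouped by complex and ordered by the difference between genotypes) on each array (columns, mutants left of the line and wild types right of it), as the deviation from the wild-type mean of that gene; colours saturate at 0.5 in either direction. Blue cells dominate the columns of the library labelled mutant 1 and of wild type 1, and red cells those of mutant 3 and wild type 3.

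Complex I, the NADH dehydrogenase, had 14 of 34 subunits higher and 20 lower in the mutants, a median difference of −0.018 and none at an unadjusted p under 0.05. Its core subunits bind NADH, flavin and iron-sulphur clusters. Ndufv1, which carries the NADH and flavin site, read 9.42, 9.42 and 9.45 in the libraries labelled mutant 1, 2 and 3, against 9.38, 9.49 and 9.44 in wild types 1 to 3, a difference of −0.0038 (SE 0.076). Ndufs1, the largest iron-sulphur subunit, averaged 9.83 ± 0.015 in the mutants and 9.85 ± 0.056 in wild type (SD, n = 3 each). Its mutant values were 9.84, 9.81 and 9.83, against 9.92, 9.81 and 9.83 in wild type, so the genotypes overlapped. The other core subunits measured, Ndufs3, Ndufs7, Ndufs8 and Ndufv2, differed by −0.072, 0.067, 0.069 and −0.023.

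The accessory subunits held the widest differences of complex I. Ndufc2, a subunit of the membrane arm, read 8.83, 9.05 and 9.34 in the mutant libraries, against 9.12, 9.26 and 9.59 in wild type. The difference was −0.25 (SE 0.17), with a 95% interval from −0.64 to 0.13. Mutant 3 lay above wild types 1 and 2, so the genotypes overlapped. Ndufb7, another membrane-arm subunit, read 8.81, 9.02 and 8.86 in the mutant libraries, against 8.61, 8.85 and 8.69 in wild type. It had the largest positive difference of complex I, 0.18 (SE 0.10), and wild type 2 lay above the library labelled mutant 1.

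Complex II, succinate dehydrogenase, also works in the tricarboxylic acid cycle. Of its 4 subunits 3 were higher in the mutants, with a median of 0.074, and none had an unadjusted p under 0.05. That median was −0.024 without mutant 3 and 0.0028 without wild type 1. Sdha, the flavoprotein, read 9.63, 9.77 and 10.08 in the mutant libraries, against 9.57, 9.80 and 9.80 in wild type. Mutant 3 alone lay above wild type, for a difference of 0.11 (SE 0.13). The iron-sulphur subunit Sdhb and the membrane anchors Sdhc and Sdhd differed by 0.067, 0.081 and −0.057.

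Complex III, the cytochrome bc1 complex, spanned the narrowest range of differences among the complexes with more than 4 genes, from −0.075 (Uqcr11, a small subunit) to 0.027 (Cyc1, which carries cytochrome c1). A further probe set of Uqcr11 differed by 0.11, and the mean over both by 0.019, so its direction depended on the probe set. Cyc1 read 10.20, 10.24 and 10.17 in the mutant libraries, against 10.16, 10.16 and 10.20 in wild type. The core proteins Uqcrc1 and Uqcrc2 differed by 0.022 (SE 0.079) and 0.019 (SE 0.10). Uqcrfs1, the Rieske iron-sulphur protein, varied more between embryos, at 7.12, 7.41 and 7.72 in the mutant libraries, against 7.18, 7.33 and 7.81 in wild type. The 2 genotypes covered nearly the same range, and the difference was −0.017 (SE 0.20). The library labelled mutant 1 and wild type 1 were lowest, and mutant 3 and wild type 3 highest. Uqcrb, the ubiquinone-binding subunit, named after its values were seen, read 10.07, 10.40 and 10.81 in the mutant libraries, against 10.39, 10.37 and 10.58 in wild type, with mutants at both ends.

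Cytochrome c, the soluble carrier between complexes III and IV, is encoded by Cycs. Its signal was 10.26, 10.30 and 10.63 in the libraries labelled mutant 1, 2 and 3, against 10.55, 10.53 and 10.53 in wild types 1 to 3. The wild types lay close together (SD 0.010, n = 3) and the mutants on both sides of them (SD 0.20, n = 3). The difference was −0.14 (SE 0.11), with a 95% interval from −0.40 to 0.12, and it was −0.26 without mutant 3. A further probe set of Cycs differed by −0.14. A dim one, at a mean of 3.58 and not tested, differed by −0.26. Signal from near-identical gene copies cannot be told apart from that of Cycs in these probe sets.

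Complex IV, cytochrome c oxidase, had a median difference of −0.0050 over 19 genes, 8 higher and 11 lower. Cox4i1, the regulatory subunit of most tissues, read 9.52, 9.65 and 9.57 in the mutant libraries, against 9.63, 9.66 and 9.59 in wild type (difference −0.047, SE 0.079). Cox5a differed by 0.029 (SE 0.15) and Cox5b by −0.0041 (SE 0.077). The subunits Cox6a1, Cox6b1, Cox7a2, Cox7b and Cox8a, forms found in most tissues, differed by −0.0050, −0.0086, −0.049, −0.054 and −0.072. Cox7a2l, which takes part in joining complexes III and IV into supercomplexes, differed by −0.021.

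Several of these subunits have forms known mainly from other tissues. The muscle forms Cox6a2, Cox7a1 and Cox8b differed by −0.14 (SE 0.10), 0.14 (SE 0.20) and 0.079, the lung form Cox4i2 by 0.051, and the testis forms Cox6b2, Cox7b2 and Cox8c by −0.064, 0.079 and 0.069. Cox8b and Cox7b2 were below the signal filter, at means of 4.27 and 2.87, and were not tested. Cox8c, at a mean of 4.40, lay just above the filter (4.34). Cox6a2, Cox4i2 and Cox6b2 were dim too, at 5.37, 5.40 and 5.77, near the 50th percentile of probe sets with 1 symbol (5.71). Cox7a1 was the exception, above that percentile at a mean of 7.06. It read 7.26, 7.49 and 6.64 in the mutant libraries, against 7.05, 6.87 and 7.06 in wild type. Mutants 1 and 2 as labelled lay above every wild type and mutant 3 below every one. Without mutant 3 its difference was 0.39.

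Ndufa4 and its relative Ndufa4l2 differed from each other in spread. Ndufa4 averaged 10.86 ± 0.070 in the mutants and 10.83 ± 0.058 in wild type (SD, n = 3 each). Ndufa4l2, a known target of hypoxia-inducible factor, read 4.83, 4.98 and 6.01 in the mutant libraries, against 4.85, 4.88 and 5.15 in wild type. Mutant 3 stood above all other libraries. The difference, 0.31 (SE 0.29, 95% interval −0.36 to 0.98), was the largest positive one of the 95 genes. Without mutant 3 the difference was −0.059. Mutant 3 was also high in the list of 19 hypoxia and glycolysis genes, whose mean was −0.080, −0.032 and 0.55 in the mutant libraries, against −0.11, 0.069 and 0.041 in wild type. The part of that list's level in the Ndufa4l2 signal was not tested.

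Complex V, the ATP synthase, had 7 genes higher and 10 lower, with a median of −0.011 and a largest positive difference of 0.036 (Atp5d, the delta subunit). Its catalytic head is built from the subunits of Atp5a1, Atp5b and Atp5c1. Atp5b, the catalytic beta subunit, read 11.97, 12.06 and 12.27 in the mutant libraries, against 11.98, 12.19 and 12.15 in wild type. Atp5a1 and Atp5c1 differed by 0.028 (SE 0.093) and 0.036 (SE 0.078). The proton-carrying c ring is encoded by Atp5g1, Atp5g2 and Atp5g3, whose differences were −0.022, −0.021 and −0.014. Atp5g1 nonetheless varied between the mutants, at 9.43, 9.43 and 8.96, against 9.32, 9.31 and 9.26 in wild type, with mutant 3 lowest.

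Atp5l, the g subunit of the membrane part, had the lowest difference of complex V. Its brightest probe set read 7.51, 7.58 and 7.96 in the mutant libraries, against 7.69, 7.88 and 7.97 in wild type, a difference of −0.16 (SE 0.14). Its 5 further probe sets differed by −0.29, −0.23, −0.20, −0.19 and −0.19. The library labelled mutant 1 was the lowest of the 6 arrays in all 6 probe sets, and signal from near-identical gene copies cannot be told apart from that of the gene. Atp5pb, the b subunit of the stalk, differed by −0.094 (SE 0.13). Among all members 19 had more than 1 probe set, and 22 of the 28 further probe sets had the sign of the brightest one. For these 19 genes the part of near-identical gene copies in the signal was not tested, also where the brightest probe set was used.

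The assembly factors help to build complexes I and II and are not part of them. Of 11 such genes 9 were lower and 2 higher in the mutants, with a median of −0.11, and 1 had an unadjusted p under 0.05, beside 3.53% of all tested probe sets. Leaving out wild type 3 gave a median of −0.038, mutant 2 gave −0.055 and the library labelled mutant 1 gave −0.059. Ndufaf1, which works in the early assembly of the membrane arm of complex I, read 7.34, 7.53 and 7.84 in the libraries labelled mutant 1, 2 and 3, against 7.89, 7.87 and 7.96 in wild types 1 to 3. Every mutant lay below every wild type, mutant 3 by a small margin. The difference was −0.33 (SE 0.13, 95% interval −0.63 to −0.033), a 1.26-fold lower level, with a limma p of 0.0339 before and 0.999 after adjustment. It was −0.22 without the library labelled mutant 1 and −0.47 without mutant 3.

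Ndufaf4, another complex I assembly factor, read 7.88, 7.83 and 7.92 in the mutant libraries, against 7.98, 7.99 and 8.03 in wild type. The groups did not overlap, for a difference of −0.12 (SE 0.075) with a limma p of 0.138. Sdhaf4, an assembly factor of complex II, had the largest positive difference of the factors, 0.26 (SE 0.26). It read 5.26, 5.81 and 6.22 in the mutant libraries, against 5.13, 5.54 and 5.82 in wild type. The library labelled mutant 1 and wild type 1 were again the lowest in this probe set. A dimmer probe set of Sdhaf4, at a mean of 4.41, differed by 0.16, and there the library labelled mutant 1 was highest, at 4.71.

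**Figure D4:**
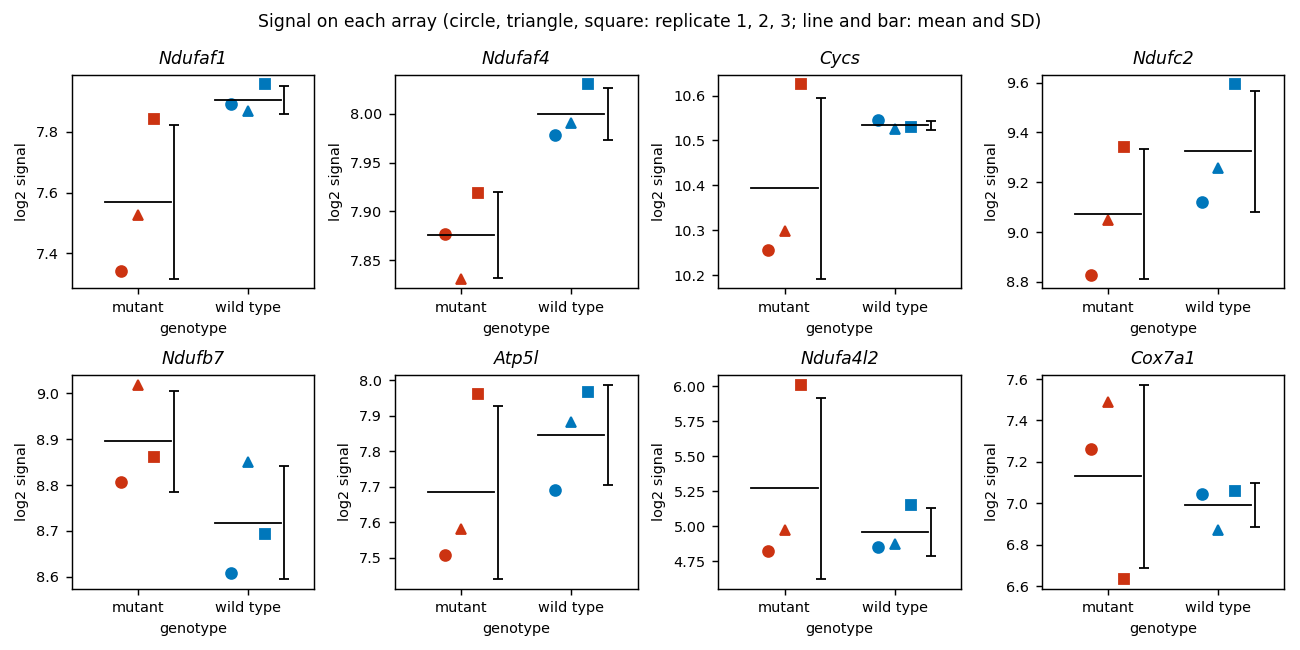
Log2 signal (vertical axes, each with its own range) of 8 genes in the mutants (red) and wild types (blue); circles, triangles and squares are replicates 1, 2 and 3, horizontal lines are means and bars are SDs of 3 arrays. Ndufaf1 and Ndufaf4 do not overlap between genotypes, the other 6 do, and mutant 3 stands apart for Cycs, Ndufa4l2 and Cox7a1.

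Many promoters of this gene group are known to bind NRF1 and ETS factors such as GABP. RefSeq promoters of GRCm38.p6 were matched for 78 of the 95 genes by gene identifier, and the 250 bases before the gene start were searched on both strands. The NRF1 letters GCGCATGC (reverse GCATGCGC) were in the promoters of 10 of 78 members (12.8%), beside 2.56% of 27025 genes of any kind. The ETS letters CCGGAAG (reverse CTTCCGG) were in 15 of 78 (19.2%), beside 7.83%. The genes of any kind were not matched to the members by expression or base content. The 10 members with the NRF1 letters had a median difference of −0.016 and the 68 without them −0.017. Those with and without the ETS letters had medians of −0.013 and −0.017. The promoters of Ndufaf1 and Ndufaf4, whose genotypes did not overlap, and of Cycs are shown 5′ to 3′ up to the gene start, with matched letters in capitals. The stretch of Ndufaf1 lies at chr2:119662835-119663084 on the minus strand. The stretch of Ndufaf4 lies at chr4:24897833-24898082 on the plus strand. The stretch of Cycs lies at chr6:50566570-50566819 on the minus strand. A match is a description of the sequence only.
Ndufaf1: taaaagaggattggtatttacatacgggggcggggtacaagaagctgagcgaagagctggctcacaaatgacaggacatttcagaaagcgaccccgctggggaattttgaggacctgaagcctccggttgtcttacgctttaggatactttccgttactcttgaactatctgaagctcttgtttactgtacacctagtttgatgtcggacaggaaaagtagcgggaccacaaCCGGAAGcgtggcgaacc
Ndufaf4: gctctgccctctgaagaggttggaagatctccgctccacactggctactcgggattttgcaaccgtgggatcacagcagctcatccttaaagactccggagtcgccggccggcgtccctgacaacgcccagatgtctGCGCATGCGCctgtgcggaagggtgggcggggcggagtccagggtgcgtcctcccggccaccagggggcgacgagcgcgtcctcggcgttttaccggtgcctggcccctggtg
Cycs: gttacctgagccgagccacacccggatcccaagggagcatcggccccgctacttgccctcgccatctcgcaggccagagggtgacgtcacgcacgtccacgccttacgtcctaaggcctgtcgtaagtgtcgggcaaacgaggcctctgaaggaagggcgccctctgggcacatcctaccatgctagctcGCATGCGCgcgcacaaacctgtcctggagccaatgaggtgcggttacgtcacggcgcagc
Ndufaf1 held the ETS letters 18 bases before its start, and Cycs held the NRF1 letters 60 bases before its own. In Ndufaf4 the forward and reverse NRF1 letters overlap, and the one nearer the start begins 111 bases before it.

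Of 28 assembly factors outside the naming rule, 19 were lower and 9 higher in the mutants, with a median of −0.040. The groups did not overlap for 4 of them, beside 8.55% of all tested probe sets: Foxred1 and Coa3 were lower, and Uqcc2 and Cox15 higher. Foxred1, an assembly factor of complex I, read 7.85, 7.80 and 7.64 in the mutant libraries, against 7.95, 8.15 and 7.95 in wild type (difference −0.25, SE 0.098). Uqcc2, an assembly factor of complex III, went the other way, at 6.95, 6.88 and 6.99 in the mutant libraries, against 6.71, 6.77 and 6.80 in wild type (difference 0.18, SE 0.078). Foxred1 alone of the 27 tested had an unadjusted p under 0.05, beside 3.53% of all tested probe sets, and neither passed after adjustment (adjusted p = 0.999 each, limma).

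The other lists of mitochondrial genes held few members past an unadjusted p of 0.05, a threshold met by 3.53% of all tested probe sets. Of the subunits encoded in mitochondrial DNA, 2 of 13 had a probe set with a single symbol: the third subunit of complex I (ND3) differed by −0.052 and the second subunit of complex IV (COX2) by −0.017. Among 18 enzymes of the tricarboxylic acid cycle and pyruvate use, 1 had such a p, Mpc1, a subunit of the mitochondrial pyruvate carrier, at −0.44 (SE 0.18). Pdhb, a subunit of pyruvate dehydrogenase and next by p, differed by −0.11. Regulators of mitochondrial biogenesis had 6 of 16 higher, a median of −0.022 and none at that threshold, with the mitochondrial helicase gene Twnk at −0.21 and the nuclear receptor gene Esrra at 0.089. Mitochondrial ribosomal proteins had 30 of 77 higher and a median of −0.016, with Mrps28 and Mrps30 at −0.24 and −0.20. Carriers and dehydrogenases that feed or use the chain had 4 of 15 higher and a median of −0.049, with Slc25a12, an aspartate and glutamate carrier, at 0.17 and Dhodh, of pyrimidine synthesis, at −0.14. Hypoxia and glycolysis genes had 14 of 19 higher and a median of 0.090, with Ndrg1 at 0.38 and Adm at 0.62, none at an unadjusted p under 0.05.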

How the data were processed

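Total RNA of individual yolk sacs was extracted with Trizol, biotin-labelled and hybridised to Affymetrix arrays, per the labels' protocols. The deposited table holds the authors' processed log2 signals of 35557 probe sets, and the scale was read from the values (0.66 to 13.7). MAS5 is the only tool in the submitters' processing notes. How background was corrected, how arrays were normalized and which genome build was used is not stated, so their effect on the values is unknown. Values were used as deposited, since array medians lay within 5.19 to 5.22.

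Genes came from GEO's annotation of the platform, which gives 21789 probe sets 1 symbol. Those with a mean at or above the 30th percentile (4.34), 15252 in all, were tested for mutant minus wild type by moderated linear models with genotype as the single term (limma 3.58.1, R 4.3.3), and p-values were adjusted over all of them by Benjamini and Hochberg's method. Probe sets with several symbols, 6 of them with member names (of Cox7c, Ndufb4 and Ndufs5), were left out. The fit was tested on simulated data with a spread modelled on these arrays. It called 24.2% of added log2 changes of 0.5, 88.7% of those of 1 and 99.4% of those of 2 after adjustment. Most changes of 0.5 were thus missed. The simulated arrays varied independently, with no library unlike the others of its genotype, and changes of all these sizes were added together. In the deposited arrays Tnrc6a, at −1.99, did not pass (adjusted p = 0.999, limma), so these shares need not hold for them. Groups came from sample titles. Same-numbered samples' deviations correlated at 0.46, 0.14 and −0.11, and those of samples with differing numbers at −0.46 to 0.25. The numbers were therefore not used as pairs. Alternatives were other normalizations, filters, variance models, the methods' t-test, a block, an Xist covariate, the mean over probe sets and left-out libraries. The members and lists were chosen with earlier results of these data known. Named were, in each complex and among the factors, the members at an unadjusted p under 0.05 or the 2 with the lowest p, the largest difference on each side, and fixed core subunits and isoforms.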

Additional observations from a re-analysis of the deposited data

How the results depend on the processing

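Under all 17 alternatives 0 members passed the adjusted test. The count of members at an unadjusted p under 0.05, 1 as reported, was 2 with array weights (6.65% of all tested probe sets met the threshold there), 3 with the replicate number as a block (Ndufaf1, Ndufc2 and Sdhaf4, beside 4.60%), 0 with both the library labelled mutant 1 and wild type 2 removed (7.37%), and 0 to 7 over the fits that each lacked 1 library. The block is given for completeness, as the numbers were not shown to pair the samples. By the median of all members, replicate 1 was lowest and replicate 3 highest in both genotypes. Whether same-numbered samples share an origin was not tested. Xist read at least 9.63 in the libraries labelled mutant 1 and mutant 3 and in wild type 1 (log2 signal). It read at most 3.90 in mutant 2 and in wild types 2 and 3. Its level was thus unevenly spread over the genotypes, and the fit without the covariate cannot separate it fully from genotype. With the Xist covariate the 1 member was Ndufb7 in place of Ndufaf1. The cause of these shifts was not tested. The median of complex III, −0.019 as reported, was 0.033 with the Xist covariate, and lay between −0.049 and 0.039 over the fits lacking 1 library. That of complex IV ran from −0.059 to 0.034, that of complex I from −0.056 to 0.042, that of complex V from −0.029 to 0.031 and that of all members from −0.047 to 0.027. The median of the assembly factors stayed below 0, from −0.15 to −0.038. Ndufa4l2 ran from −0.059 without mutant 3 to 0.53 without the library labelled mutant 1. Of the 95 members, 14 to 27 changed the sign of their difference when 1 library was absent, 32 with the library labelled mutant 1 and wild type 2 both absent, 16 with the Xist covariate, 12 with array weights, and 5 each with quantile normalization and the mean over probe sets. With both the library labelled mutant 1 and wild type 2 removed, Tnrc6a differed by −3.08 and passed (adjusted p = 0.00245). Of their genotypes these libraries lay closest to the other group for Tnrc6a, so the difference had to widen. With 3 arrays a genotype, the median 95% interval of a member was ± 0.25 before any adjustment.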
